A study of Homo sapiens with 4 samples.

Results

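Chemokines are small secreted proteins that draw leukocytes along a gradient, and 10 of their genes were followed here in EGF-treated cholangiocarcinoma cells: CXCL1, CXCL2, CXCL3, CXCL5, CXCL6, CXCL8 (formerly IL8), CXCL16, CCL2, CCL3 and CCL20. Members were found by the RefSeq transcript that the array files give for each probe, so that every non-control probe naming a transcript of a listed gene was taken. This gave 12 probes of the 34127 non-control probes on the array, for 10 of the 19480 genes that could be named. CXCL1 and CXCL2 had 2 probes each and the other 8 genes had 1 probe each. Every probe was followed on its own.

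Messenger RNA was measured in HuCCT1, a cell line from a human intrahepatic cholangiocarcinoma (a cancer of the bile ducts within the liver), to compare the effect of miR-376c with that of silencing GRB2, its proposed target and an adaptor protein that links activated receptors such as the EGF receptor to RAS signalling. The 4 transfections, each at 30 nM, were Pre-miR-376c (a mimic of the mature microRNA), the Pre-miR negative control, siGRB2 (a small interfering RNA against GRB2) and the siRNA negative control. All 4 cultures were given EGF at 5 ng/ml in medium with 0.1% serum 24 h after transfection, and RNA was taken 24 h after EGF was added. Each condition had 1 array of 1 culture, so no test between conditions can be made, and no p-value is given. No culture without EGF or without transfection was analysed here, a single cell line and a single siRNA sequence stand behind all values, and in such bulk RNA fewer cells of a kind and less RNA per cell cannot be told apart.

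The CXC chemokines that carry a glutamate-leucine-arginine motif before their paired cysteines (CXCL1, CXCL2, CXCL3, CXCL5, CXCL6 and CXCL8) act on the receptors CXCR2 and CXCR1 and call in neutrophils, and biliary epithelium is known to secrete several of them when it is inflamed. Their transcription is induced chiefly by interleukin-1 and tumour necrosis factor through NF-kB, with AP-1 and C/EBP factors taking part. CXCL16 is made as a membrane protein, is shed by the proteases ADAM10 and ADAM17 and binds CXCR6, whereas CCL2 recruits monocytes through CCR2, CCL3 acts through receptors that include CCR1, and CCL20 acts through CCR6.

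The neutrophil chemokine genes CXCL8, CXCL6, CXCL1, CXCL5, CXCL3 and CXCL2 lie in this order on chromosome 4, with PF4V1 between CXCL6 and CXCL1 and with PF4 and PPBP between CXCL1 and CXCL5. Promoter windows of 300 bases (250 before and 50 after the gene start; RefSeq, GRCh38.p14) were held for 8 of the 10 genes, and not for CXCL16 and CCL2. A 10-base kB word, the kind of site that NF-kB dimers bind, stood in the same orientation in the windows of CXCL1, CXCL2, CXCL3, CXCL5 and CXCL6. It began between 78 and 91 bases before the gene start. The 60 bases around it are shown for these genes, with the word in capitals, and those around the nearest match are shown for CXCL8.

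CXCL1, chr4:73869289-73869348, plus strand: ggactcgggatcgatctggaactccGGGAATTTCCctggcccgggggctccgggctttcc

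CXCL2, chr4:74099239-74099298, minus strand: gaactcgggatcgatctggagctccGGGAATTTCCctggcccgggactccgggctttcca

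CXCL3, chr4:74038734-74038793, minus strand: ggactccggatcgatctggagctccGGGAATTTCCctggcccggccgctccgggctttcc

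CXCL5, chr4:73998734-73998793, minus strand: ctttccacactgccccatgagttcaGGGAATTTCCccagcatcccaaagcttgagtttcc

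CXCL6, chr4:73836563-73836622, plus strand: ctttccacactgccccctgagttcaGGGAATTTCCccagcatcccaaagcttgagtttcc

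CXCL8, chr4:73740452-73740511, plus strand, nearest match in capitals: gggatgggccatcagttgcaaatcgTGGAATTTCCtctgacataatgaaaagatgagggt

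The stretches of CXCL5 and CXCL6 were the same at 59 of 60 bases, and those of CXCL1 and CXCL3 at 56 of 60. CXCL2 shared 49 bases with CXCL1 and 48 with CXCL3, and the pair CXCL5 and CXCL6 shared 27 to 29 bases with the other genes. The best match in CXCL8 had 9 of the 10 bases, in CCL20 8 and in CCL3 7. The word itself was in 51 of 35116 promoter windows of all genes (0.145%, either strand), and it was picked after the matches of the broader pattern had been seen. That broader NF-kB pattern (GGG, 5 arbitrary bases and CC, either strand) was found for all 8 members and in 58.7% of all windows. Members are counted here by gene, with a match in any of their windows, whereas the shares are of single windows. For CCL3, which has several windows, the best match to the word was sought in the most upstream window only. Its match to the broader pattern was in another window. An AP-1 pattern (TGANTCA, which reads the same on both strands) was found in CXCL8 only among the members and in 7.71% of all windows. A C/EBP pattern (TTGCNNAA, either strand) was found in CXCL2 and CCL3 and in 10.5% of all windows. Such matches describe letters and do not show that a factor was bound.

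The introduced microRNA, hsa-miR-376c-3p, is encoded at chr14:101039732-101039752 on the plus strand, and is shown with its seed, bases 2 to 8, in capitals. No target site in a chemokine transcript was searched for.

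hsa-miR-376c-3p: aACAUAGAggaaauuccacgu

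Levels are given as the log2 of a probe's processed intensity minus that of the 75th percentile of its array, so that 0 is a rather bright probe and a step of 1 is a 2-fold difference. The scanner error of a chemokine level was 0.14 to 0.25 on this scale. The level of one probe says nothing about its level against another probe. GRB2, the targeted gene (probe A_24_P407717), had a level of 0.62 with the Pre-miR control, 0.07 with Pre-miR-376c, -0.10 with the siRNA control and -0.65 with siGRB2. It was thus lowest on the siGRB2 array, with a log2 difference of -0.55 from the siRNA control and of -1.27 from the Pre-miR control. The siRNA control array stood apart from the other 3: over the 21239 probes well above background on all 4 arrays, the SD of the log2 differences was 0.54 to 0.58 in pairs with that array and 0.31 to 0.36 in pairs without it, and 5.87% to 8.23% of probes were at least 2-fold apart against 1.09% to 1.33%. Each treated array was therefore set against both controls. All 7 genes fixed as markers of biliary epithelium (KRT7, KRT8, KRT18, KRT19, EPCAM, CDH1 and SOX9) were well above background on all 4 arrays, with all 9 probes. Of the 10 leukocyte marker probes 7 passed on all 4 arrays, of the 5 endothelial and 5 fibroblast probes 2 and 1, and of the 5 hepatocyte probes 1, with ALB and TTR on none. PTPRC, which defines leukocytes, was dim, with levels from -5.98 to -4.86 for the 2 of its 4 probes that passed on all arrays. Levels of other leukocyte markers ran from -1.12 to 0.30 for CD79A, from -0.96 to -0.46 for CD68, from -2.08 to -1.85 for CD14 and from -2.26 to -1.28 for CSF1R. ITGAM was dim like PTPRC, with levels from -5.14 to -4.85. CD3E passed on 3 arrays, with levels from -6.08 to -5.74, and not on the siRNA control array. The part of other cell types in the chemokine values was not tested.

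All 12 chemokine probes were well above background on all 4 arrays. CXCL1 (by one probe), CXCL5, CXCL16 and CCL3 were lower on both treated arrays than on both controls, CCL2 was higher on both, and the other 7 probes overlapped between treated and control arrays. Lying below both controls were 4 of 12 chemokine probes, beside 13.6% of all 21239 probes, and lying above both was 1 of 12, beside 21.3%. With Pre-miR-376c against the Pre-miR control, 2 chemokine probes (CCL3 and CXCL1) were at least 2-fold lower, where 1.47% of 24384 probes were, and 0 were at least 2-fold higher, where 1.57% were. With siGRB2 against the siRNA control, 0 were at least 2-fold lower (3.11% of 23368 probes) and 2, CCL2 and CXCL6, were at least 2-fold higher (6.71%). Which probes passed the limit depended on the scaling: with arrays set to a common median, 3 chemokine probes (CCL3, the first of CXCL1, and CXCL5) were at least 2-fold lower with siGRB2 and 0 higher, although these 3 probes and those of CCL2 (0.86) and CXCL6 (0.92) kept their sign, while over all probes the share of calls that were higher went from 68.3% to 26.2%.

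Each treated array was then set against the opposite control. With Pre-miR-376c against the siRNA control 2 probes were at least 2-fold lower, again CCL3 and CXCL1 (3.35% of 22974 probes), and 0 higher (3.92%). With siGRB2 against the Pre-miR control 2 were lower, CCL3 and CXCL5 (1.01% of 24495 probes), and 1 higher, CCL2 (1.93%). The 2 controls differed from each other by at least 2-fold at 3 chemokine probes, of CCL3, CXCL1 (its second probe) and CXCL6, all lower on the siRNA control (6.1% of 24340 probes), and 0 were higher (3.07%). The median difference of the 12 probes was -0.33 with Pre-miR-376c against its own control and -0.53 with siGRB2 against its own, where the medians over all probes measured on both arrays were -0.03 and 0.15. Against the opposite controls the medians were 0.24 with Pre-miR-376c and -0.50 with siGRB2, beside 0.09 and 0.04 over all probes, so that the sign of the median for Pre-miR-376c depended on which control was used. The treatments share each control, so these comparisons are not independent of each other.

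**Figure D1:**
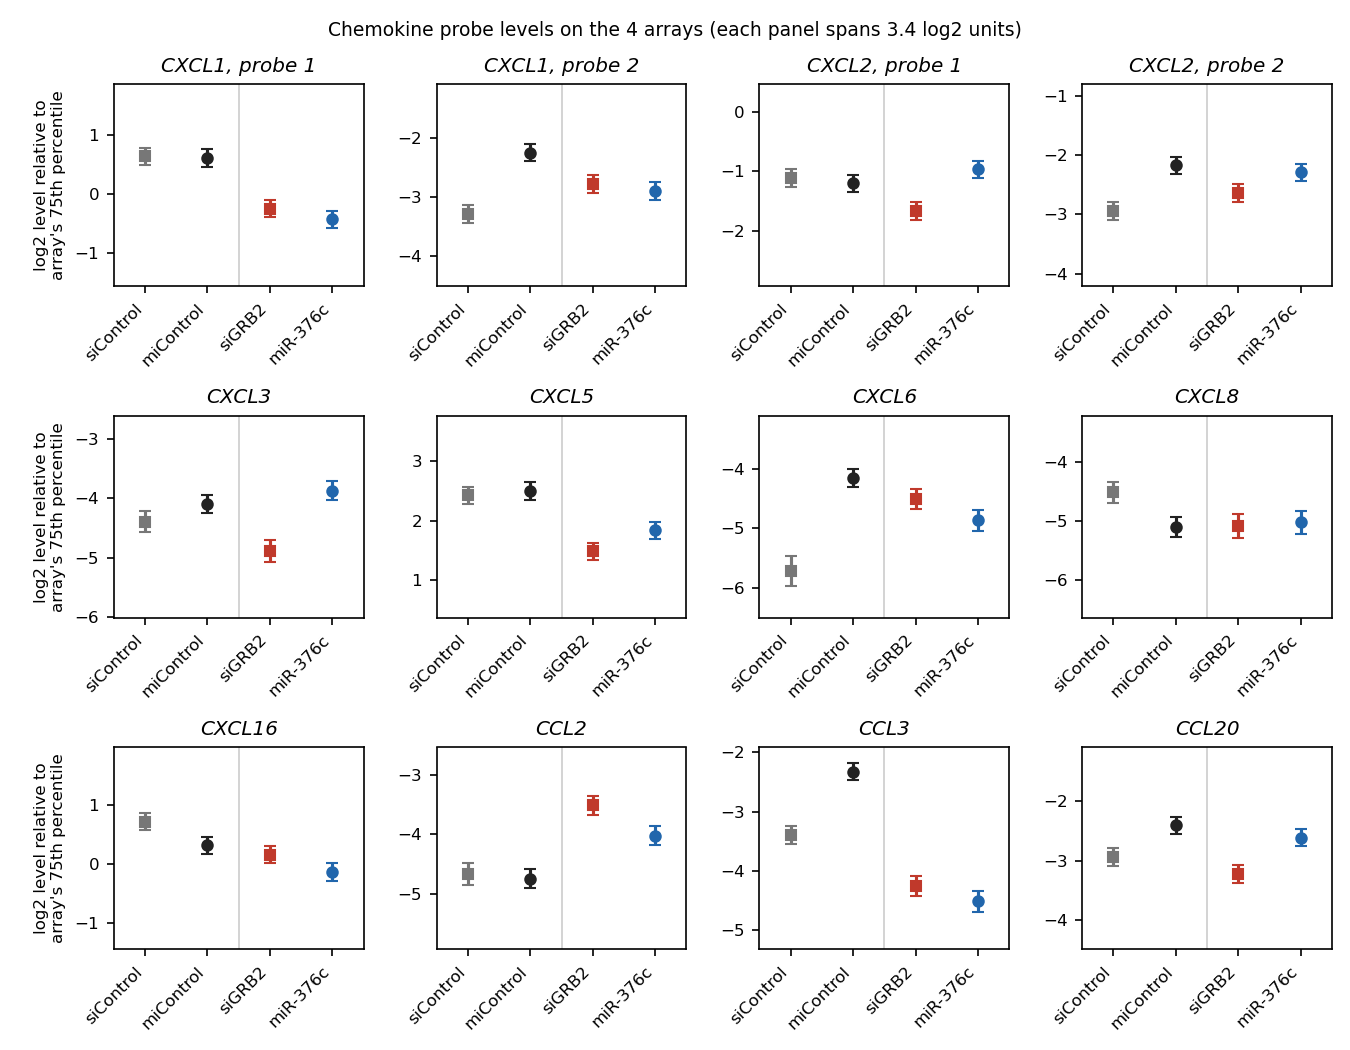
Log2 level, relative to the array's 75th percentile, of the 12 chemokine probes on the arrays of the siRNA control (siControl), the Pre-miR control (miControl), siGRB2 and Pre-miR-376c (miR-376c); points are single arrays (CCL2: mean of 10 spots) and bars the scanner software's error, and panels have different positions on the axis but the same span. Both treated points lie below both control points for the first CXCL1 probe, CXCL5, CXCL16 and CCL3, and above them for CCL2.

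CXCL1, a neutrophil chemokine first described as a growth factor of melanoma cells, had 2 probes that disagreed. The first (A_23_P7144) had levels of 0.61 with the Pre-miR control and 0.64 with the siRNA control, and those of the treated arrays were -0.43 (Pre-miR-376c) and -0.25 (siGRB2). The controls were 0.03 apart, within the scanner error of 0.20 for a difference, while the treated arrays were lower than either control by 0.85 to 1.06. Pre-miR-376c thus left 48.9% of the Pre-miR control's signal and siGRB2 54.2% of the siRNA control's. The gap between the higher treated and the lower control array, 0.85, was met or passed downwards by 11 of the 21239 probes, this one included. Under the alternative processings the 4 differences stayed between -1.22 and -0.82.

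The second CXCL1 probe (A_33_P3330264) names the same transcript and gave another picture. Its levels were -2.25 with the Pre-miR control, -3.28 with the siRNA control, -2.90 with Pre-miR-376c and -2.78 with siGRB2. Both treated arrays lay below the Pre-miR control, by 0.65 and 0.52, and above the siRNA control, by 0.38 and 0.50. The probes of CXCL1 thus gave the same sign against the Pre-miR control and opposite signs against the siRNA control, on which the second probe was 1.03 lower than on the Pre-miR control.

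CXCL2, which shares most of its protein with CXCL1, also had 2 probes. For the first (A_23_P315364) the levels were -1.20 with the Pre-miR control, -1.11 with the siRNA control, -0.97 with Pre-miR-376c and -1.67 with siGRB2, so that siGRB2 was the lowest, by 0.47 and 0.56 against the controls, and Pre-miR-376c the highest. For the second (A_24_P257416) they were -2.17, -2.95, -2.29 and -2.64 in the same order of arrays, and here the siRNA control was the lowest. Against the Pre-miR control siGRB2 was 0.47 lower by the first probe and 0.46 lower by the second. Against the siRNA control it was 0.56 lower by the first and 0.31 higher by the second. Pre-miR-376c was 0.23 higher by the first probe and differed by -0.12 by the second against the Pre-miR control, and was 0.14 and 0.66 higher against the siRNA control. The sign thus differed between the probes in 1 comparison with each control.

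CXCL3, the third of the closely related trio (A_24_P183150), had levels of -4.10 with the Pre-miR control, -4.39 with the siRNA control, -3.87 with Pre-miR-376c and -4.89 with siGRB2. Pre-miR-376c was the highest and siGRB2 the lowest, as for the first CXCL2 probe. The difference of siGRB2 was -0.50 ± 0.26 (scanner error) against the siRNA control and -0.79 ± 0.24 against the Pre-miR control. That of Pre-miR-376c was 0.23 ± 0.22 and 0.52 ± 0.23 against the Pre-miR and the siRNA control. With normexp background correction the differences of siGRB2 came to -0.19 and -0.23, within these errors. The mRNAs of CXCL1, CXCL2 and CXCL3 are alike in sequence, and whether a probe also caught a paralog's transcript was not tested.

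CXCL5, a neutrophil attractant made by epithelial cells, was bright (A_24_P277367). It had levels of 2.50 with the Pre-miR control, 2.43 with the siRNA control, 1.84 with Pre-miR-376c and 1.48 with siGRB2. Its control levels differed by 0.07, within the scanner error of 0.20, and both treated arrays were lower. Pre-miR-376c left 63.2% of its own control's signal and siGRB2 51.9% of its own, and siGRB2 against the Pre-miR control was at -1.01. The gap of 0.59 between treated and control arrays was met or passed downwards by 66 of 21239 probes.

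CXCL6, whose promoter stretch differed from that of CXCL5 at a single position in 60, had a different course (A_23_P155755). Its levels were -4.15 with the Pre-miR control, -5.71 with the siRNA control, -4.86 with Pre-miR-376c and -4.50 with siGRB2. Both treated arrays lay between the controls, which were 1.56 apart, more than for any other chemokine probe. The 2-fold higher level of siGRB2 against the siRNA control (1.21 ± 0.30) therefore stood beside a lower one against the Pre-miR control (-0.36 ± 0.22). On the siRNA control array its processed intensity was 32.9, where the dimmest probe well above background had 21.5. With normexp background correction the difference of 1.21 came to 0.60.

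CXCL8, or interleukin-8, the neutrophil chemokine that also binds CXCR1 strongly, was dim (A_32_P87013), with processed intensities of 58.8 to 78.3. Its levels were -5.10 with the Pre-miR control, -4.52 with the siRNA control, -5.02 with Pre-miR-376c and -5.08 with siGRB2. Its levels with the Pre-miR control and on both treated arrays lay within 0.08 of each other and the siRNA control was higher, so that both treated arrays were lower than the siRNA control, by 0.51 and 0.57, and differed from the Pre-miR control by less than the scanner error of 0.26.

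CXCL16, the membrane-bound chemokine (A_33_P3351249), had levels of 0.31 with the Pre-miR control, 0.71 with the siRNA control, -0.14 with Pre-miR-376c and 0.15 with siGRB2. Both treated arrays were below both controls, but the gap was 0.16, within the scanner error of 0.20, and 1027 of 21239 probes had one at least as wide downwards. Pre-miR-376c was 0.45 lower than its own control and siGRB2 0.56 lower than its own. Of the proteases that shed CXCL16, ADAM10 was lower on both treated arrays than on both controls by its 2 probes, by 0.13 to 0.73. ADAM17 was higher on both than on both controls, by 0.19 to 0.71.

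**Figure D2:**
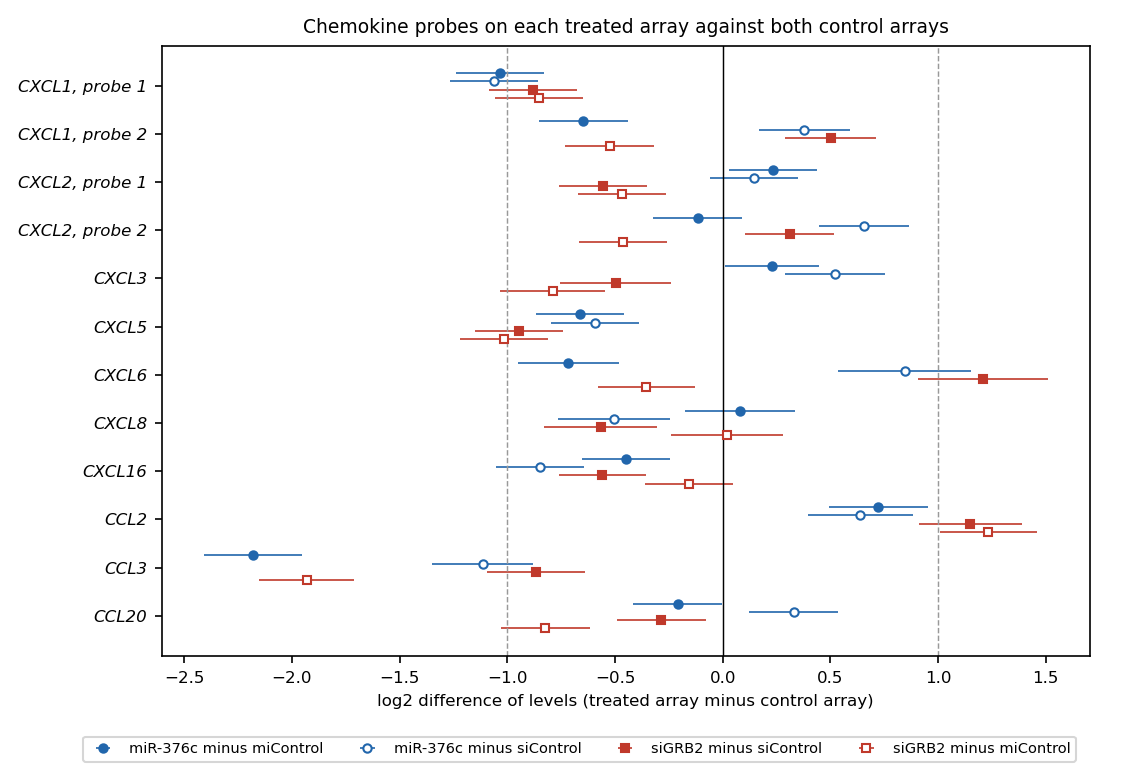
Log2 differences of the 12 chemokine probes between each treated array and each control array, with bars for the scanner error of the difference and dashed lines at 2-fold; blue circles are Pre-miR-376c and red squares siGRB2, filled against the own control and open against the other control. All 4 differences lie left of 0 for the first CXCL1 probe, CXCL5, CXCL16 and CCL3 and right of 0 for CCL2. For CXCL6, CXCL8 and the second probes of CXCL1 and CXCL2, the filled and the open symbol of each treatment fall on opposite sides of 0. Differences from the Pre-miR control are within the scanner error for CXCL8, and for Pre-miR-376c by the second CXCL2 probe.

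CCL2, the monocyte attractant also called MCP-1, was the single member higher on both treated arrays than on both controls, and the single one printed 10 times on each array (A_23_P89431). The mean levels of its 10 spots were -4.75 ± 0.15 (SD between spots) with the Pre-miR control, -4.66 ± 0.11 with the siRNA control, -4.02 ± 0.11 with Pre-miR-376c and -3.51 ± 0.09 with siGRB2. Spots ran from -4.98 to -4.56 and from -4.81 to -4.52 on the controls, from -4.24 to -3.90 with Pre-miR-376c and from -3.65 to -3.33 with siGRB2. Spots of the controls overlapped each other and all lay below every treated spot, and all siGRB2 spots lay above all Pre-miR-376c spots. Spots of 1 array share 1 RNA sample, so this spread is that of the array and not of the cultures.

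The CCL2 signal was thus 1.65-fold higher with Pre-miR-376c than with its own control and 2.22-fold higher with siGRB2 than with its own. Against the opposite controls the folds were 1.56 and 2.35. The gap of 0.64 between the lower treated and the higher control array was met or passed upwards by 32 of the 21239 probes. CCL2 stayed dim on every array, with mean processed intensities of 68.0 to 175, and with normexp background correction the 4 differences ran from 0.27 to 0.99, all above 0.

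**Figure D3:**
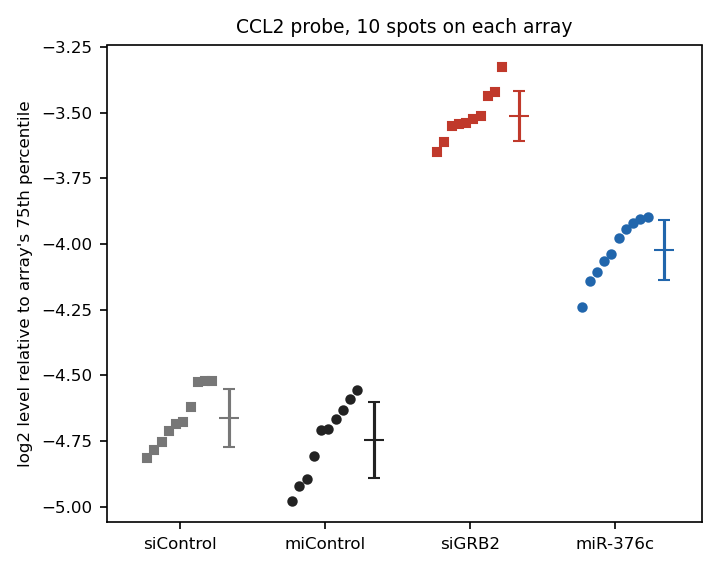
Log2 level of each of the 10 spots of the CCL2 probe on each array, relative to the array's 75th percentile, sorted within the array, with the mean and the SD between spots to the right of the points. Control spots end at -4.52, Pre-miR-376c spots (miR-376c) begin at -4.24 and siGRB2 spots begin at -3.65.

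CCL3, or MIP-1 alpha, an attractant of monocytes and T cells, had the widest range of the 12 probes (A_33_P3316273). Its levels were -2.32 with the Pre-miR control, -3.39 with the siRNA control, -4.50 with Pre-miR-376c and -4.26 with siGRB2. Pre-miR-376c left 22.1% of the Pre-miR control's signal, a difference of -2.18 ± 0.23, and 46.2% of the siRNA control's. siGRB2 left 54.8% of the siRNA control's and 26.2% of the Pre-miR control's. The controls were 1.07 apart, so that the size of each difference depended on the control, while the gap of 0.87 was met or passed downwards by 9 of 21239 probes. CCL3 is nearly identical to its copies CCL3L1 and CCL3L3, and its values may include their transcripts. The 2 probes naming CCL3L3, looked up because of this likeness, were dim: one was well above background with the Pre-miR control only (-5.25) and the other on 3 arrays, at -5.25, -4.81 and -5.52 with the Pre-miR control, Pre-miR-376c and siGRB2.

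CCL20, which calls in CCR6-bearing dendritic cells and T cells (A_23_P17065), had levels of -2.40 with the Pre-miR control, -2.94 with the siRNA control, -2.61 with Pre-miR-376c and -3.22 with siGRB2. siGRB2 was the lowest, by 0.28 against the siRNA control and by 0.82 against the Pre-miR control. Pre-miR-376c lay between the controls.

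**Figure D4:**
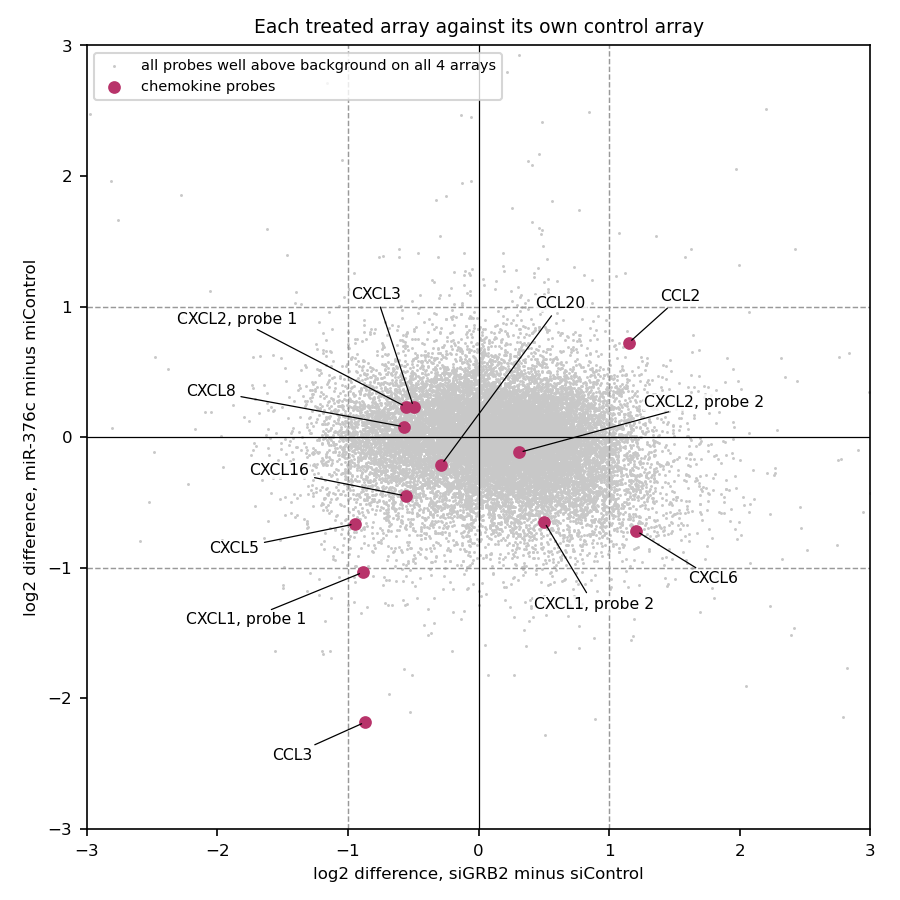
Log2 difference of siGRB2 from its own control (horizontal) against that of Pre-miR-376c from its own control (vertical), for the 21239 probes well above background on all 4 arrays (grey; 11 probes fall outside the axes) and the 12 chemokine probes (named), with dashed lines at 2-fold. CCL3, the first CXCL1 probe, CXCL5, CXCL16 and CCL20 lie at the lower left and CCL2 at the upper right. CXCL6 and the second probes of CXCL1 and CXCL2 lie at the lower right, and CXCL3, CXCL8 and the first CXCL2 probe at the upper left.

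The chemokines were also set beside the genes of their pathway. Of 38 other chemokine genes 34 had a probe, 44 probes in all, of which 10 were well above background on all 4 arrays and 22 on none. Of those 10, 1 (CCL28) was lower and 5 (of CCL15, CCL16, CCL24, CCL26 and CXCL12) were higher on both treated arrays than on both controls, beside 13.6% and 21.3% of all probes. The counted CXCL12 probe differed from the Pre-miR control by only 0.01 with Pre-miR-376c and 0.07 with siGRB2. Another CXCL12 probe well above background on all 4 arrays differed from that control by -0.38 and -0.16. At least 2-fold past both controls was CCL18 alone, on the siGRB2 array, where its level was -4.58. It was not well above background on the other 3 arrays and was at least 5.31-fold higher than with the Pre-miR control and at least 3.35-fold higher than with the siRNA control.

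Of 23 chemokine receptor genes with 26 probes, 9 probes were well above background on all 4 arrays and 15 on none. CXCR2, CXCR6, CCR1, CCR2, ACKR1 and ACKR2, which bind members of the group, were not well above background on any array. CXCR1 passed on 3 arrays, at -6.31, -6.23 and -5.87 with the Pre-miR control, the siRNA control and siGRB2. CCR6, the receptor of CCL20, passed on all 4, with levels from -1.11 to -0.88.

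Among 40 inducers and regulators of chemokine transcription and mRNA decay, 47 of 49 probes were well above background on all 4 arrays. Of these, 13 were lower on both treated arrays than on both controls, for IL1A, IL1B, IL1R1, IL1RN, IRAK2, IKBKB, NFKBIA, NFKBIE, NFKBIZ, JUN, ZFP36L1 and ADAM10, and 9 were higher, for NFKB1, NFKBIB, IKBKG, FOS, FOSL1, LIF, ZFP36, ELAVL1 and ADAM17, beside 13.6% and 21.3% of all probes. IL1RN and ZFP36L1 each had another probe well above background on all 4 arrays that did not lie below both controls. Another IL1R1 probe, which passed on 3 arrays, was higher on both treated arrays than with the Pre-miR control, by 0.04 and 0.50. Several counted probes differed little from the Pre-miR control. With Pre-miR-376c the difference was 0.01 for IKBKG, 0.03 for FOSL1, 0.04 for LIF and -0.03 for NFKBIE. With siGRB2 it was -0.04 for IKBKB and for the counted ZFP36L1 probe. The scanner error of a chemokine difference was at least 0.20, and that of these probes is not given. At least 2-fold past both controls was IL1B alone, the cytokine interleukin-1 beta, on the Pre-miR-376c array. Its levels were -0.29 with the Pre-miR control, -0.04 with the siRNA control, -1.70 with Pre-miR-376c and -1.21 with siGRB2, so that both treated arrays were lower, by 0.92 to 1.66. At least 2-fold lower with Pre-miR-376c against its own control was 1 of the 49 probes of this list tested, and 0 were higher, beside 1.47% and 1.57% of all probes. With siGRB2 against its own control 2 of 48 were lower and 2 were higher, beside 3.11% and 6.71%.

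The 4-array profiles of the members that varied by at least 1 were compared with those of all 17436 named probes well above background on all arrays, by the Euclidean distance of the centred log2 levels. Nearest to the first CXCL1 probe were CAPN5 (0.08), HHIP (0.09) and PRDM1 (0.11), and among the nearest to CXCL5 were C11orf54 (0.13) and HSD11B1 (0.15). The nearest to CCL2 was RASGEF1C (0.02), before AIF1L (0.15) and PHC1 (0.19). CCL3 had no neighbour closer than TFAP2A (0.38), followed by VNN1 (0.45) and MSANTD3-TMEFF1 (0.48). For CXCL6, FAM3A, CFAP97D1 and CYTH2 lay at 0.06 to 0.07, for the second CXCL1 probe PLAUR, HUWE1 and STMN3 at 0.06 to 0.08, and for CXCL3 C9orf40, ABCA10 and RHEX at 0.17. No member was among the nearest of another member, and 4 arrays are few points for such a likeness.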

How the data were processed

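The authors hybridised Cy3-labelled RNA (200 ng each) to a 1-colour Agilent human array and deposited, per condition, the spot intensity values of Agilent Feature Extraction (version 10.7.3.1), background-subtracted within the array by that software. A second file deposited by the authors holds log2 values, 1 per probe and array, from GeneSpring after shifting each array to its 75th percentile. Its columns equalled the log2 intensity minus a constant per array, within 0.01 for 99.45% to 99.54% of probes, so the direction and scale are known, and it served as an alternative. Array medians of that table were -3.36 to -3.59.

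From the scanner files, control spots and spots flagged as outliers (289 to 329 per array) were left out, spots of a probe were averaged on the log2 scale, and the array's 75th percentile (1719 to 2689 intensity units) was subtracted. No spot was saturated. A probe was called well above background where more than a 0.5 share of its spots carried that flag, which 63.9% to 70.7% of 34127 probes did per array. A probe below background on 1 array entered as a bound, set by the lowest signal well above background (21.2 to 24.4). Called means at least 2-fold apart. Errors are the software's error estimate, carried to the log2 scale and added in quadrature for a difference. They cover the scan and the spot only. With 1 array per condition no test was run, and precision is limited by having 1 array.

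Probe names came from RefSeq transcripts (25419 of 34127 probes, 74.5%). Promoter and microRNA sequences came from RefSeq tables (GRCh38.p14), while the array design was annotated on hg19, so no probe coordinates are given. The named genes are the 10 members, GRB2, the members' receptors, ADAM10 and ADAM17, up to 5 probes per treated array and direction in each pathway list that were at least 2-fold past both controls, and the 3 nearest profiles of each member probe that ranged over at least 1. Some genes that this rule names are not reported here. Other genes are named to fill out a count of list members, and CCL3L3 was added after its values were seen. The members and the lists were chosen with earlier results of these data known. Scripts were tested on simulated data. Python 3.11.15, numpy 2.4.6, pandas 2.3.3, matplotlib 3.10.9, R 4.3.3 and limma 3.58.1 were used.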

Additional observations from a re-analysis of the deposited data

How the results depend on the processing

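No paired analysis was possible because 1 array stands for each transfection. The chemokine probes lying below both controls (those of CCL3, CXCL1, CXCL16 and CXCL5) and above both (CCL2) were the same under the main setting and the 6 other processings (median scaling, the percentile over detected probes, outlier spots kept, quantile normalization, normexp background correction and the deposited log2 values), a check added after the data were seen. The counts of chemokine probes at least 2-fold apart changed more. With Pre-miR-376c against the Pre-miR control the 2 probes became 1 with median scaling, with the deposited values, with the mean per gene and at a 3-fold limit, and 6 at a 1.5-fold limit. With siGRB2 against the siRNA control the 2 (CCL2 and CXCL6, higher) became 1 with quantile normalization (CCL3, lower), 3 with median scaling (CCL3, CXCL1 and CXCL5, lower), 3 with the deposited values (CXCL5, lower, added), 0 with normexp, 0 at 3-fold and 5 at 1.5-fold. With Pre-miR-376c against the siRNA control the 2 became 1 with quantile normalization, normexp and the mean per gene. They became 3 with median scaling (CCL3, CXCL1 and CXCL16, lower), 0 at 3-fold and 7 at 1.5-fold. With siGRB2 against the Pre-miR control the 3 became 2 with normexp (without CCL2, at 0.99), 1 at 3-fold and 6 at 1.5-fold. Between the controls the 3 became 1 with median scaling, quantile normalization and the deposited values. They became 2 with the mean per gene, 0 with normexp, 0 at 3-fold and 5 at 1.5-fold. The causes were not tested, apart from the limits themselves, which set fewer or more probes past them. Of 360 single differences under these processings 301 moved by less than the scanner error (CCL2: the SD between spots) and 59 moved by more. None of the differences of at least 2-fold changed sign. Among the smaller differences 7 changed sign, for the first probes of CXCL1 and CXCL2 and for CXCL5 and CXCL8.

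Median scaling moved the median of all probes in siGRB2 minus siRNA control from 0.15 to -0.13 and in the siRNA control minus the Pre-miR control from -0.11 to 0.17, so every difference with the siRNA control is relative to that choice. The share of calls that were higher went, with median scaling and with quantile normalization, from 51.6% to 63.2% and 59.9% with Pre-miR-376c against the Pre-miR control, from 68.3% to 26.2% and 45.7% with siGRB2 against the siRNA control, from 53.9% to 29.6% and 41.5% with Pre-miR-376c against the siRNA control, and from 33.5% to 71.8% and 51.9% between the controls. With the percentile over detected probes it was 64.3% with Pre-miR-376c against the siRNA control. With normexp the difference between the controls for CXCL6 went from -1.56 to -0.63, and that of Pre-miR-376c from the Pre-miR control for CCL3 from -2.18 to -1.52.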
